A study of Mus musculus with 6 samples.

Results

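The Ifi200 family and Aim2 are interferon-inducible genes that lie side by side on mouse chromosome 1. The 7 genes Ifi203, Ifi204, Ifi207, Ifi209, Ifi211, Mndal and Aim2 were chosen by symbol out of 18227 genes in the deposited table. All 7 were present, and they are part of a cluster with 13 genes of this kind in the table. RNA was measured in corneal tissue of male Muc13 knockout (Muc13-/-) C57BL/6 mice, 3 libraries called KO 1 to 3, and in that of wild-type males of matched age and sex, 3 libraries called WT 1 to 3. All mice were 6 weeks old and specific-pathogen-free. The labels name no treatment, and they do not say which part of Muc13 is deleted, which C57BL/6 substrain was used or whether a sample is 1 mouse or a pool. P-values therefore measure the spread between these samples. Total expected counts ran from 1.41e+07 to 1.48e+07 in the knockout libraries and from 1.49e+07 to 1.55e+07 in the wild-type libraries.

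Proteins of this family carry a DNA-binding HIN domain, and most also carry a pyrin domain through which they bind other proteins; together the pair of domains gives the name PYHIN. Interferon raises the transcription of many of them, and several sense DNA outside its proper place. Aim2 builds an inflammasome on double-stranded DNA in the cytosol, and p204, the product of Ifi204, signals from DNA to the adaptor STING in mouse cells. In the cornea, interferon-inducible sensors are part of the defence of the surface epithelium and of resident immune cells against viruses.

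Muc13, the targeted mucin gene, was low in both genotypes, with 9, 4 and 2 counts across KO 1 to 3 against 18, 21 and 9 counts across WT 1 to 3. KO 1 and WT 3 had equal counts and, at 0.597 against 0.561 CPM, KO 1 lay above WT 3, so the groups overlapped and Muc13 does not bear out the label of the library labelled KO 1. The libraries also differed in tissue content. Summed over 10 retina genes, the level was 20473 to 35717 CPM (counts scaled to library size) in the knockout libraries and 23028 CPM in WT 3, but 70.2 and 241 CPM in WT 1 and WT 2. Summed over 9 corneal epithelium genes including Krt12, it was 32924, 33243 and 5723 CPM across KO 1 to 3 and 110270, 86050 and 26408 CPM across WT 1 to 3. The summed level of 8 stromal keratocyte genes was 1854, 3217 and 6234 CPM across KO 1 to 3 and 718, 1531 and 3034 CPM across WT 1 to 3. Ptgds alone made up 34.0%, 45.2% and 87.3% of this sum across KO 1 to 3 and 0.369%, 12.0% and 45.5% across WT 1 to 3. The other 7 keratocyte genes, Kera, Lum and Dcn among them, summed to 1224, 1763 and 795 CPM across KO 1 to 3 and 715, 1347 and 1655 CPM across WT 1 to 3. All epithelial and stromal genes listed were above 0 in all 6 libraries, as were all retina genes. The part of this tissue content in the results below was not tested. In tissue RNA, fewer cells of a type and less RNA per cell cannot be told apart.

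In GRCm38 the cluster spans chromosome 1 from 173350879 to 174031810 (680.9 kb), between Aim2 at one end and Ifi205 at the other. It holds 13 PYHIN genes of the table, all protein coding. Aim2 (ENSMUSG00000037860, 173350879 to 173466040) and Ifi209 (ENSMUSG00000043263, 173630917 to 173647928) lie on the plus strand. Ifi207 (ENSMUSG00000073490, 173723427 to 173741747), Ifi204 (ENSMUSG00000073489, 173747293 to 173766943), Mndal (ENSMUSG00000090272, 173849126 to 173942491), Ifi211 (ENSMUSG00000026536, 173896345 to 173913046) and Ifi203 (ENSMUSG00000039997, 173920407 to 173942672) lie on the minus strand. The annotated span of Mndal covers all of Ifi211 and most of Ifi203 on the same strand. Aim2 overlaps Cadm3, a cell adhesion gene on the other strand, and since the use of strand is not given, reads of that overlap cannot be told apart.

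Promoter sequences are shown because most members were lower in the knockout and the family is known for induction by interferon. Whether these sequences have a part in the lower values was not tested. RefSeq promoters of GRCm38.p6, 250 bases before to 50 bases after a start, were found for 6 of the 7 members. The lines below give a stretch before the start, 5′ to 3′ on the gene's strand, with capitals marking each match to AAATNGAAA. These letters were chosen after the sequences were seen. Mndal and Ifi203 each have a second RefSeq start, whose promoter does not hold them.

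Ifi209 (chr1:173630751-173630819, plus strand): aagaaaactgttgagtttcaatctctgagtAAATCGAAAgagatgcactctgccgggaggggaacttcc
Ifi207 (chr1:173741811-173741879, minus strand): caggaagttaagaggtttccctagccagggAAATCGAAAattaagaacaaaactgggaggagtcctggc
Mndal (chr1:173880188-173880252, minus strand): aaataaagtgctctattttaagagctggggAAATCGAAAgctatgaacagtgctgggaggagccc
Ifi211 (chr1:173913047-173913112, minus strand): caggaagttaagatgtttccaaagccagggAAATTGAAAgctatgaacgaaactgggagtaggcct
Ifi203 (chr1:173942493-173942556, minus strand): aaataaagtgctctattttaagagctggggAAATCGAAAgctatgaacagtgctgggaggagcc
Aim2 (chr1:173420504-173420603, plus strand): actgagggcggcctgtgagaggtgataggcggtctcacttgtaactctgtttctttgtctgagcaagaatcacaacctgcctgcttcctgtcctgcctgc

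The core of the interferon-stimulated response element, searched on both strands as GAAA, any 2 bases and GAAA again, was found in 4 of these 6 members (Ifi203, Ifi207, Ifi211 and Mndal) and in 3.44% of all 32851 RefSeq promoters. Its first base lay 35 to 41 bases before the start in these stretches. AAATNGAAA, which overlaps that core in the same 4 genes, was also in Ifi209, and so in 5 of 6 members against 1.87% of all promoters. Over all 12 PYHIN genes of the table with a promoter it was in 10. Since the letters AAATNGAAA were chosen after these sequences were seen, its shares are a description and no test of enrichment. The gamma-activated site TTCNNNGAA was in 0 of the 6 members and in 8.30% of all promoters. The printed stretches of Mndal and Ifi203 are identical over all 64 bases compared, while those of Ifi207 and Ifi211 share 56 of 66. A match is a description of the letters only, and no match says only that the letters are not in this window.

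Copies this alike also limit how reads can be assigned. Counts that are not whole are estimates that divide reads among transcripts, and they occurred in all 6 libraries for Ifi211, 5 for Ifi204, 4 for Mndal, 3 for Ifi203 and 2 for Ifi209. Ifi207 and Aim2 had whole counts throughout, within a tolerance of 1e-06. Of all stretches of 100 bases in the GENCODE transcripts of Ifi211, 56.9% also occur in another gene, 37.2% in Ifi205 and 19.6% in Ifi204. For Ifi209 this share was 16.9%, all with Ifi214, and for Ifi204 it was 10.7%, mostly with Ifi211. It was 6.38% for Mndal, 2.84% for Ifi203, 0.790% for Ifi207 and 0 for Aim2. Ifi211 is therefore the least certain of the 7 as a single gene.

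Among the 7 members, the 6 Ifi200 genes had lower mean CPM in the knockout corneas, by 1.56-fold (Ifi207) to 3.94-fold (Mndal). Aim2 did not. Of the 7 members, 6 had a log2 fold change below 0, as did 48.5% of all 14983 genes tested. Their median log2 fold change was −1.43, beside 0.02 over all genes tested. In CPM, 5 of the 7 (Ifi203, Ifi204, Ifi207, Ifi211 and Mndal) had their highest knockout value under their lowest wild-type value, as had 5.51% of all genes tested. The reverse held for 0 members and for 4.71% of all genes tested. On the TPM scale (transcripts scaled to a fixed library total, a level per length), examined after the data were seen, Ifi204 and Ifi207 overlapped, and 3 of 7 stayed apart, against 3.88% of all genes tested.

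Adjusted over all 14983 genes, 0 of the 7 members passed edgeR's quasi-likelihood test at an adjusted p of 0.05, and 0% of all genes tested did. At an unadjusted p under 0.05, 3 members (Mndal, Ifi211 and Ifi203) were lower and 0 higher, beside 3.66% and 0.721% of all genes tested. With DESeq2, Mndal fell (adjusted p = 0.0171) and the other 6 did not pass, where 0.335% of genes were called lower. Weighting libraries by quality in limma-voom called 4 members lower, where 25.4% of all genes were, and leaving out WT 3 called 2 lower, where 12.9% were. All 7 members passed the filter on low counts.

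**Figure D1:**
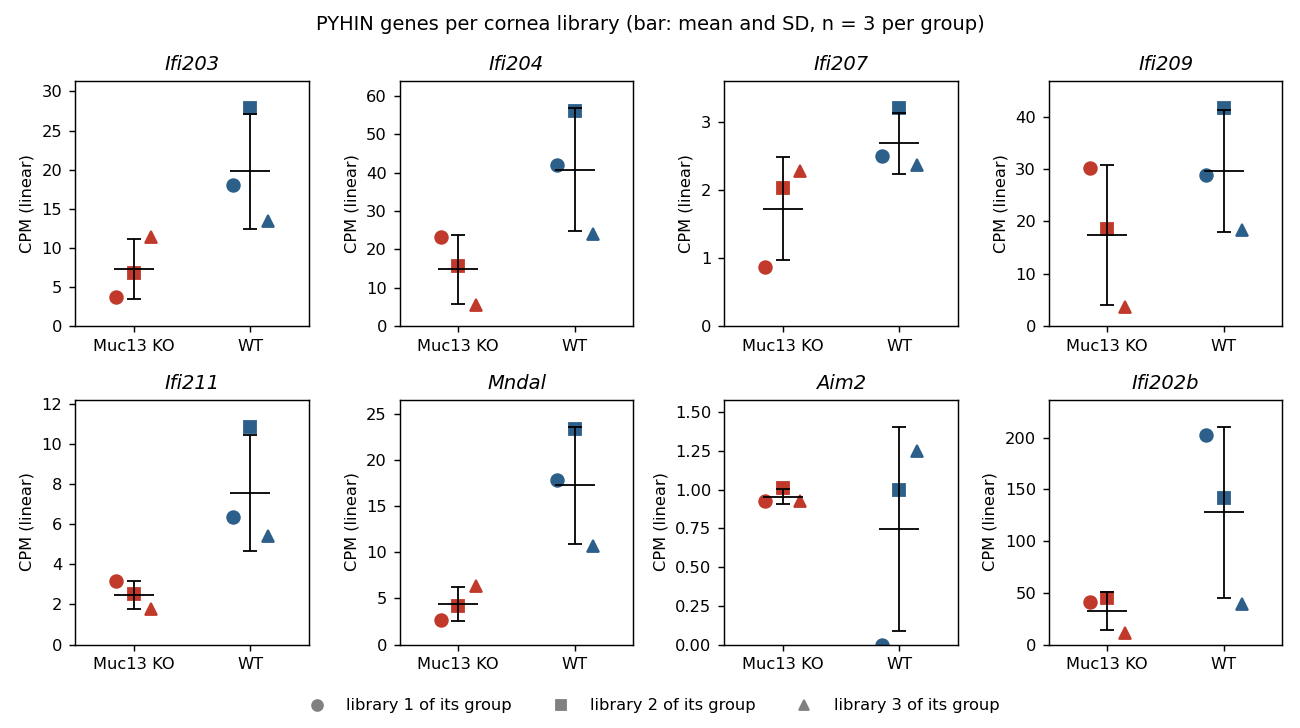
CPM of the 7 genes and of Ifi202b in each of the 6 libraries, with the mean and SD of each group of 3 as bars on linear axes from 0. Mndal and Ifi211 show a clear gap between the groups, those of Ifi203, Ifi204 and Ifi207 lie close at WT 3, and Ifi209, Aim2 and Ifi202b overlap.

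Mndal, a nuclear protein gene whose product restrains cell growth in mouse studies, had the log2 fold change farthest below 0 of the 7; without KO 1, Ifi204 (−1.96) and Ifi211 (−1.81) lay below it (−1.72). It had 2.65, 4.19 and 6.29 CPM across KO 1 to 3, against 17.8, 23.3 and 10.7 CPM across WT 1 to 3. Every knockout library lay below every wild-type library, and the gap between the highest knockout and the lowest wild-type library was wider than the steps between the knockout libraries. The means were 4.38 ± 1.82 CPM in knockout and 17.3 ± 6.34 CPM in wild-type corneas (SD, n = 3 each). The log2 fold change was −1.98 (SE 0.467, edgeR adjusted p = 0.501).

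Ifi203 shares its printed promoter stretch with Mndal. It had 3.71, 6.82 and 11.4 CPM across KO 1 to 3 and 18.0, 27.9 and 13.4 CPM across WT 1 to 3. The groups were separate, but KO 3 came close to WT 3. The log2 fold change was −1.43 (SE 0.507, edgeR adjusted p = 0.501), from means of 7.31 ± 3.87 CPM in knockout and 19.8 ± 7.38 CPM in wild-type corneas (SD, n = 3 each).

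Ifi204 encodes p204, a mouse relative of the human DNA sensor IFI16. It had 23.3, 15.6 and 5.36 CPM across KO 1 to 3, against 41.9, 56.2 and 24.1 CPM across WT 1 to 3. KO 1 was nearly level with WT 3, and KO 3 was far below all others. The means were 14.7 ± 8.99 CPM in knockout and 40.8 ± 16.1 CPM in wild-type corneas (SD, n = 3 each), with a log2 fold change of −1.47 (SE 0.601, edgeR adjusted p = 0.501).

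Ifi211, a further PYHIN gene, had 3.18, 2.50 and 1.79 CPM across KO 1 to 3 and 6.38, 10.9 and 5.42 CPM across WT 1 to 3. All knockout libraries were lower than all wild-type libraries, and the log2 fold change was −1.60 (SE 0.446, edgeR adjusted p = 0.501). Its transcript shares long stretches with Ifi205 and Ifi204, so reads of these stretches cannot be told apart. Ifi205 itself had 0.0663, 0.135 and 0.185 CPM across KO 1 to 3 and 0.856, 1.92 and 0.748 CPM across WT 1 to 3, with counts that were not whole in all 6 libraries.

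Ifi207 belongs to the low members; its product strengthens STING signalling against retroviruses in mice. It had 13, 30 and 37 counts across KO 1 to 3 and 32, 45 and 38 counts across WT 1 to 3. After scaling these were 0.862, 2.03 and 2.28 CPM in knockout and 2.49, 3.20 and 2.37 CPM in wild-type corneas. KO 1 was low, while KO 2 and KO 3 nearly met WT 1 and WT 3. The log2 fold change of −0.64 (SE 0.492, edgeR adjusted p = 0.515) was little larger than its error, and without KO 1 it was −0.32.

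Ifi209 had groups that overlapped over much of their range, with 30.2, 18.5 and 3.58 CPM across KO 1 to 3 and 28.8, 41.6 and 18.4 CPM across WT 1 to 3. KO 1 exceeded WT 1 and WT 3, and KO 2 exceeded WT 3. The log2 fold change was −0.76 (SE 0.763, edgeR adjusted p = 0.565), and it was −0.28 without KO 3, −0.44 without WT 2 and −1.42 without KO 1.

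Aim2, the sensor of the AIM2 inflammasome, was low in both genotypes and at 0 in WT 1. It had 14, 15 and 15 counts across KO 1 to 3 and 0, 14 and 20 counts across WT 1 to 3, or 0.928, 1.01 and 0.925 CPM against 0, 0.995 and 1.25 CPM. The 0 in WT 1 allows a level of up to 0.233 CPM by a floor of 3 counts, and the other 5 libraries lay between 0.925 and 1.25 CPM. Summed over each group, Aim2 in the knockout stood at 1.21 times the wild type (95% exact interval 0.753 to 1.95, counting error only). The log2 fold change was 0.34 (SE 1.12, edgeR adjusted p = 0.850), and it turned to −0.23 without WT 1. In TPM, Aim2 had 0.83, 0.85 and 2.98 across KO 1 to 3 and 0, 0.68 and 1.22 across WT 1 to 3, so that KO 3 stood apart on this scale with a count no higher than that of KO 2. The overlapping gene Cadm3 had 205, 116 and 114 CPM across KO 1 to 3 and 2.80, 5.54 and 167 CPM across WT 1 to 3. Cadm3 was low in WT 1 and WT 2, of which WT 2 had Aim2 counts and WT 1 had none. The part of Cadm3 reads in the Aim2 counts was not tested.

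**Figure D2:**
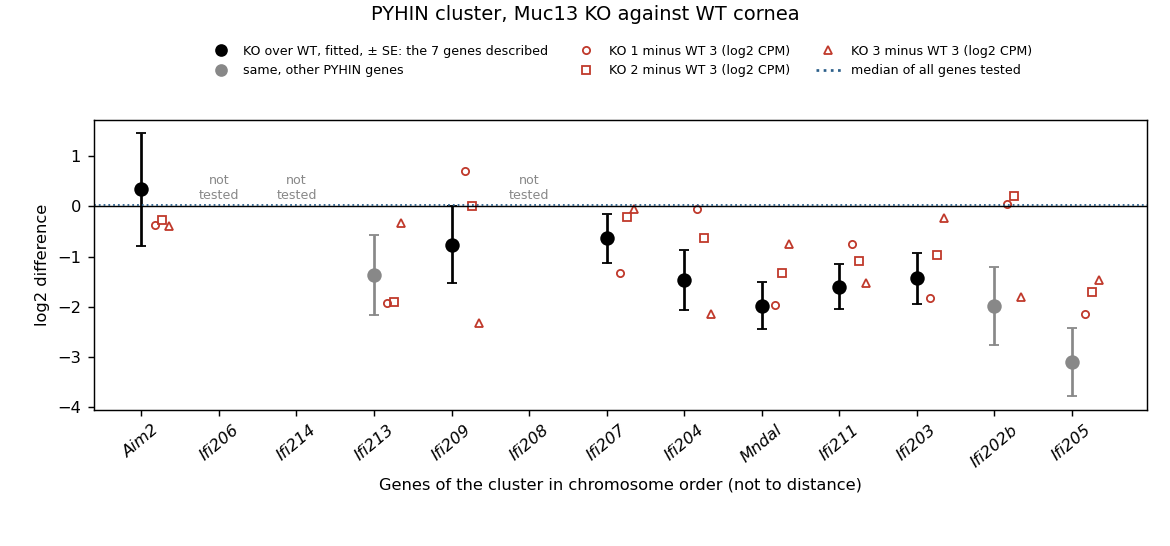
Log2 differences (y axis) of the PYHIN genes in chromosome order (x axis). Filled points are fitted log2 fold changes of knockout over wild type with SE, and open points set each knockout library against WT 3 alone; between Ifi207 and Ifi205 all fitted values lie below 0 (that of Ifi205 rests on 1 to 3 counts per knockout library and depends on the prior count), and Aim2 at the other end lies at 0.34 with an SE that crosses 0.

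WT 3 had a retina sum within the knockout range, and the members were also set against WT 3 alone, a choice made after the values were seen. In log2 CPM, 6 of 7 were lower in KO 1 than in WT 3, 6 of 7 in KO 2 and 7 of 7 in KO 3, where 47.6%, 49.9% and 53.5% of all genes tested were lower. The members' medians were −0.74, −0.62 and −0.75 in these 3 comparisons, which share WT 3. Mndal differed from WT 3 by −1.95, −1.32 and −0.75 on the log2 scale across KO 1 to 3. Ifi209 was above WT 3 in KO 1, level with it in KO 2 and far below it in KO 3, at 0.71, 0.01 and −2.32. These are values against 1 wild-type library, with no test, and the part of tissue content in them was not tested.

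In CPM, Ifi203, Ifi204, Ifi207, Ifi209, Ifi211 and Mndal were each highest in WT 2 and lowest in WT 3 among the wild-type libraries, and Aim2 did not follow this order. In TPM all 6 were again highest in WT 2, but Ifi203, Ifi207, Ifi209 and Ifi211 were lowest in WT 1. Among the knockout libraries the same 6 genes split, in CPM and in TPM alike. Ifi203, Ifi207 and Mndal were highest in KO 3 and lowest in KO 1, while Ifi204, Ifi209 and Ifi211 were highest in KO 1 and lowest in KO 3.

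Ratios within a library show the split most plainly, since they do not depend on scaling between libraries. Ifi204 had 6.45, 2.35 and 0.606 times the TPM of Mndal across KO 1 to 3, but 1.61, 1.63 and 1.61 times across WT 1 to 3. This pair had the steadiest wild-type ratio of 15 pairs among the 6 PYHIN genes with means of at least 1 TPM in both groups, and it is named for that, after its values were seen. Ifi203 had 0.124, 0.387 and 3.20 times the TPM of Ifi209 across KO 1 to 3, a span of 25.9-fold, against 0.629, 0.671 and 0.752 times across WT 1 to 3. That pair was likewise picked after its values were seen, for the widest knockout span. The knockout libraries spanned more than the wild-type libraries in 11 of the 15 pairs. The exceptions were Ifi203 over Mndal and the pairs of Ifi202b with Ifi204, Ifi209 and Ifi211. No test of this difference in spread was made, and 3 libraries a group give little hold on it. The 15 pairs share 6 genes and are not independent. The same count over other gene pairs was not made, so the wider span cannot be called particular to this family. Apart from Ifi202b, these genes had counts that were not whole, so the ratios also carry the division of reads among transcripts.

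Tissue content also differed among the knockout libraries. The epithelial sums of KO 1 and KO 2 were close (32924 and 33243 CPM). Ifi204 was at 23.3 and 15.6 CPM in these 2 libraries, and Mndal at 2.65 and 4.19 CPM. KO 3, where Ifi204 and Ifi209 were lowest, had the lowest epithelial sum (5723 CPM) of the 6 libraries and, without Ptgds, the lowest keratocyte sum (795 CPM) of the knockout libraries. The 8 general leukocyte genes, among them Ptprc, summed to 33.0, 36.6 and 58.4 CPM across KO 1 to 3 and 16.8, 39.5 and 33.7 CPM across WT 1 to 3. For 14 macrophage genes the sums were 103, 119 and 186 CPM in knockout and 66.4, 124 and 108 CPM in wild-type corneas, with no gene of either list at 0 in any library. Dendritic cell genes (9) summed to 10.01 to 15.4 CPM in knockout and 2.26 to 8.48 CPM in wild-type corneas, with 7 of them, Flt3 included, at 0 in some library. The 9 T and NK cell genes in the table stayed at 1.35 to 3.14 CPM in knockout and 0.311 to 1.63 CPM in wild-type corneas, and the 5 B cell genes at 1.36 to 1.52 CPM against 1.17 to 1.49 CPM. Blood vessel genes (6) ran from 150 to 217 CPM in knockout and from 111 to 251 CPM in wild-type corneas. Lens genes (8) ran from 414 to 66081 CPM in knockout and from 222 to 36338 CPM in wild-type corneas, and skeletal muscle genes (8) from 79.4 to 734 CPM against 296 to 3307 CPM. The part of any of these in the members' values was not tested.

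Set against those sums, the members again differed. Mndal had 80.3, 114 and 108 CPM per 1000 CPM of leukocyte genes across KO 1 to 3, against 1060, 590 and 316 across WT 1 to 3, and it was also separate, and lower in the knockout, per macrophage RNA. Ifi203 and Ifi211 were likewise lower and separate on both scales. Ifi204 was lower and separate per leukocyte RNA but overlapped per macrophage RNA, and Ifi209 overlapped on both. The share of all genes tested that is separate on these scales was not computed, so the separations are not read as particular to the members. Per keratocyte RNA, Mndal, Ifi203 and Ifi211 were separate over the 8 genes. Without Ptgds, left out after the values were seen, Ifi211 was separate and Mndal and Ifi203 overlapped. Mndal then had 2.17, 2.38 and 7.91 CPM per 1000 CPM across KO 1 to 3 and 24.9, 17.3 and 6.44 across WT 1 to 3. Per 1000 CPM of epithelial genes, by contrast, all 5 of Ifi203, Ifi204, Ifi209, Ifi211 and Mndal overlapped between the groups. Ifi204, for one, had 0.707, 0.469 and 0.937 across KO 1 to 3 and 0.380, 0.653 and 0.914 across WT 1 to 3.

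**Figure D3:**
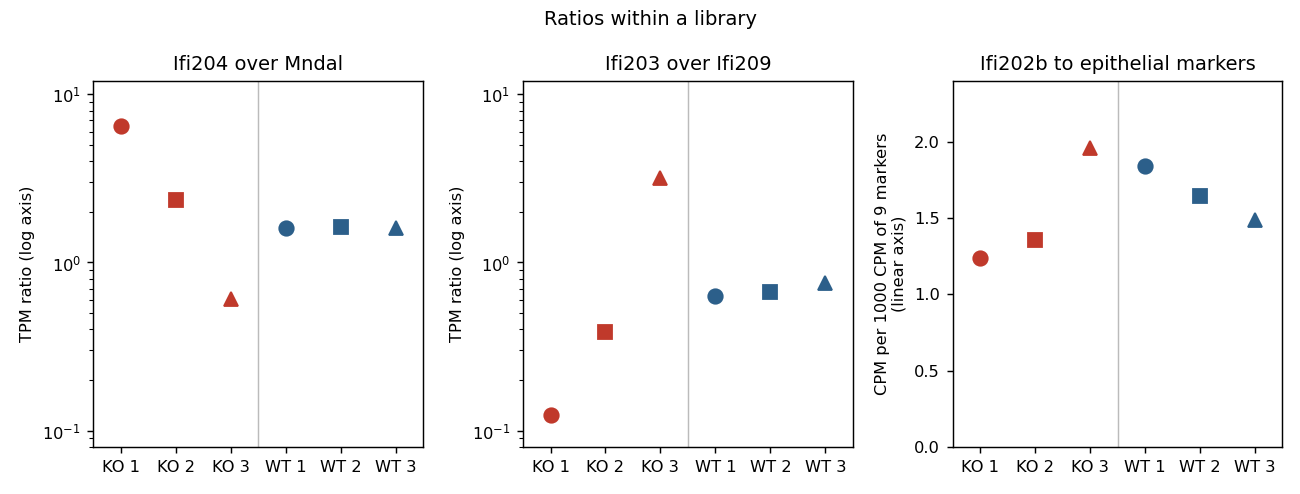
TPM ratios of Ifi204 over Mndal and of Ifi203 over Ifi209 (log axes), and CPM of Ifi202b per 1000 CPM of 9 epithelial genes (linear axis), in each library. The wild-type ratios of both pairs sit within 1.20-fold of each other and the knockout ratios spread over more than 10-fold. Ifi202b per epithelial RNA lies between 1.24 and 1.96 in all 6 libraries. Per keratocyte, leukocyte or macrophage RNA, not drawn, it spans 50.8-fold to 157-fold.

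Of the other PYHIN genes in the table, Ifi202b stood out, with the highest mean TPM of all 13 PYHIN genes in both genotypes. Its product has HIN domains but no pyrin domain, and it holds AIM2 back in mouse cells. A microdeletion at Ifi202b has been described in C57BL/6J mice, and the labels here give C57BL/6 with no substrain. It had 615, 668 and 182 counts across KO 1 to 3 and 2609, 1991 and 631 counts across WT 1 to 3, all whole, and no stretch of 100 bases of its transcript occurs in another annotated gene. These were 40.8, 45.1 and 11.2 CPM in knockout and 203, 141 and 39.3 CPM in wild-type corneas, where KO 1 and KO 2 exceeded WT 3. The log2 fold change was −1.98 (SE 0.777, edgeR adjusted p = 0.501). Its CPM spanned 18.1-fold over the 6 libraries. Per 1000 CPM of epithelial genes it had 1.24, 1.36 and 1.96 across KO 1 to 3. Across WT 1 to 3 it had 1.84, 1.64 and 1.49, for a span of 1.58-fold with groups that overlap. The span was 157-fold per keratocyte RNA, 62.8-fold per leukocyte RNA and 50.8-fold per macrophage RNA, where the groups also overlapped. The part of tissue content in the values of Ifi202b was not tested.

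Ifi205 and Ifi213 also passed the filter, Ifi205 through its wild-type libraries alone, and neither passed the test (edgeR adjusted p = 0.501 for both). With 1.12 to 2.91 counts per knockout library, Ifi205 is given by summed counts, at 0.112 times the wild type in the knockout (95% exact interval 0.0392 to 0.261, counting error only). Ifi213 had a log2 fold change of −1.36 (SE 0.797). Ifi206 and Ifi208 were too low to test, with 3 to 5 and 2 to 6 counts per knockout library and 4 to 11 and 9 to 18 counts per wild-type library. Summed over each group, Ifi208 in the knockout stood at 0.287 times the wild type (95% exact interval 0.137 to 0.559, counting error only). Ifi214 never exceeded 1.03 counts.

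In level per length, Ifi202b and then Ifi204 had the highest means of the PYHIN genes in both genotypes. In KO 3, however, Ifi204 (3.90 TPM) lay below Mndal (6.44 TPM) and Ifi203 (5.28 TPM). The mean TPM in knockout corneas was 32.8 for Ifi202b, 10.8 for Ifi204, 8.13 for Ifi209, 4.49 for Mndal, 3.34 for Ifi203, 2.41 for Ifi211, 1.55 for Aim2 and 0.780 for Ifi207. In wild-type corneas it was 99.9 for Ifi202b, 24.1 for Ifi204, 14.9 for Mndal, 11.3 for Ifi209, 7.71 for Ifi203, 6.14 for Ifi211, 1.05 for Ifi207 and 0.633 for Aim2. Among the 8 genes named here, Ifi202b stood clear of Ifi204 and Ifi211 of Ifi207 in the wild type, while the ranges of Ifi204, Mndal, Ifi209, Ifi203 and Ifi211 each overlapped with their neighbour in the order, although the order held within all 3 wild-type libraries. Ifi202b alone made up 51.4%, 58.7% and 32.6% of the summed TPM of the 13 PYHIN genes across KO 1 to 3. Across WT 1 to 3 its share was 72.3%, 55.8% and 43.4%.

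Summed over the 7 members, which leaves reads divided among them in place, the level was 64.8, 50.7 and 31.6 CPM across KO 1 to 3 and 115, 164 and 75.6 CPM across WT 1 to 3. The knockout mean of 49.0 ± 16.7 CPM was 0.414 of the wild-type mean of 118 ± 44.3 CPM (SD, n = 3 each). The groups did not overlap, and 5.51% of single genes tested were likewise lower in the knockout without overlap. Reads that Ifi211 shares with Ifi205, and Ifi209 with Ifi214, are not held within this sum. Over all 13 PYHIN genes of the table, the ratio of summed CPM was 0.330.

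Genes with the pattern most like the members' mean were sought among 14227 genes by the root-mean-square difference of centred log2 CPM over the 6 libraries. The closest were Herc6 (0.174), Trim21 (0.199), Phf11a (0.211), Gvin1 (0.215), Pycr1 (0.216) and Lyn (0.229). Herc6 had 12.3, 11.8 and 12.1 CPM across KO 1 to 3 and 20.0, 36.1 and 25.9 CPM across WT 1 to 3. Of the members themselves, Ifi211 was nearest to their mean (0.293) and Aim2 farthest (1.38), so the mean profile stands for none of them closely.

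Around Aim2, the genes of its inflammasome had values on either side of 0. Of 12 genes listed, 10 were tested, 6 had log2 fold changes below 0 and 4 above, and 0 passed edgeR's test over all genes (2 lower and 1 higher at an unadjusted p under 0.05, 1 lower with DESeq2). Beside these and the next lists, 3.66% of all genes tested were lower and 0.721% higher at that p, 0.335% were called lower with DESeq2, and 48.5% lay below 0. The adaptor Pycard (ASC) had 31.7, 28.4 and 14.7 CPM across KO 1 to 3 and 105, 77.2 and 24.5 CPM across WT 1 to 3, with KO 1 and KO 2 above WT 3 (log2 fold change −1.46, SE 0.591). Casp8, a caspase of cell death, was at −1.13 (SE 0.450), and Il1b, a cytokine cut by caspase-1, was at 1.20 (SE 0.419) at levels of 0.862 to 1.11 CPM in knockout and 0.355 to 0.467 CPM in wild-type corneas. Zbp1, a sensor of nucleic acids in the Z form, had 1.92, 2.77 and 6.60 CPM across KO 1 to 3 and 17.5, 37.2 and 18.4 CPM across WT 1 to 3. Its log2 fold change was −2.69 (SE 0.606), and it was the gene of this list that fell with DESeq2 (adjusted p = 0.00566).

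In the cGAS and STING path, on which p204 acts, 15 of 18 listed genes were in the table and tested. Of these 14 lay below 0, with a median log2 fold change of −0.35, and 0 passed edgeR's test over all genes (2 lower at an unadjusted p under 0.05, 1 lower with DESeq2). Irf7, a transcription factor that amplifies interferon, had 39.9, 38.5 and 42.1 CPM across KO 1 to 3 and 90.2, 154 and 115 CPM across WT 1 to 3 (log2 fold change −1.58, SE 0.233) and fell with DESeq2 (adjusted p = 9.09e-06). Samhd1, which degrades nucleotides, was at −0.63 (SE 0.206), the ligase Trim56 at −0.47 (SE 0.197) and the kinase Ikbke at −0.81 (SE 0.371). Sting1 itself was the exception above 0, at 0.67 (SE 0.548).

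Among 15 genes of interferon signalling, which drives PYHIN transcription, 13 lay below 0 and 2 above, with a median log2 fold change of −0.62. With edgeR 0 passed over all genes; at an unadjusted p under 0.05, 4 were lower and 1 was higher. Irf9, a transcription factor of the interferon response (−1.58, SE 0.269), and Usp18 (−1.86, SE 0.307), which curbs the interferon receptor, fell with DESeq2 (adjusted p = 0.000228 for Irf9 and 6.71e-05 for Usp18). Irf9 had 31.8, 34.7 and 47.8 CPM across KO 1 to 3 and 122, 137 and 83.6 CPM across WT 1 to 3, and the groups did not overlap. Stat2, at −0.82 (SE 0.276), did not pass.

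**Figure D4:**
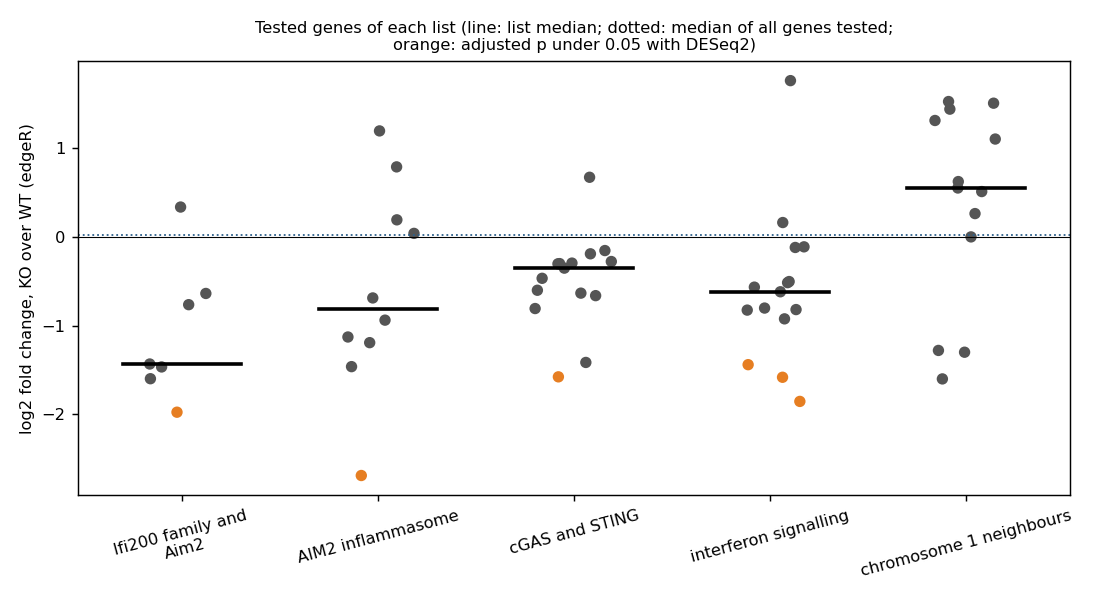
Fitted log2 fold changes of the tested genes of 5 lists, with list medians as lines and genes past an adjusted p of 0.05 with DESeq2 in orange. The 7 members have a median of −1.43. The medians of the inflammasome, DNA sensing and interferon signalling lists lie between −0.35 and −0.81. Other genes near the cluster and farther along the chromosome have a median of 0.55, and some of these were low in WT 1 and WT 2 alone.

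Other genes near the cluster and farther along chromosome 1 had values on both sides of 0. Of 19 listed, 13 were tested, 3 lay below 0 and 10 above, with a median log2 fold change of 0.55, and 0 passed edgeR's test (2 lower at an unadjusted p under 0.05, 0 with DESeq2). Of those above 0, Cadm3, Rgs7, Fmn2 and Ackr1, picked after their values were seen, were low in WT 1 and WT 2 alone, as was the retina sum. Rgs7 had 22.9, 12.6 and 12.3 CPM across KO 1 to 3 and 0.156, 0.0711 and 16.3 CPM across WT 1 to 3, and the part of retina RNA in the list's median was not tested. Those with the smallest p included Tagln2 (−1.28, SE 0.484), Exo1 (−1.60, SE 0.617) and Igsf8 (0.51, SE 0.248).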

How the data were processed

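Expected counts (estimated reads per gene) were deposited by the authors without normalization, and TPM values were deposited by the authors scaled to the same total in each library. The build GRCm38 (mm10) is named per the submitters' processing notes; no aligner, counting program or strand setting is named in the labels. The other 20 columns of values were not used. Expected counts were rounded and tested in R 4.3.3 with edgeR 4.0.16: TMM scaling, filterByExpr, robust quasi-likelihood fit, genotype as the only term, and Benjamini-Hochberg adjustment over the 14983 genes that passed the filter. The common dispersion had a square root of 0.585. CPM are TMM-scaled, and log2 CPM used a prior count of 2. SE is the log2 fold change over the square root of F. Alternatives used DESeq2 1.42.0 and limma 3.58.1. The analysis was tested on simulated counts.

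Positions are from GENCODE M21, in which 18181 of 18227 identifiers matched. Members, lists and tests were chosen with earlier results of these data known. Named genes were all members, every other PYHIN gene of the table, up to 4 genes with the smallest p of each pathway and neighbour list, and the 6 most alike; Sting1 and Cadm3 were added after their values were seen, as were the pair ratios, the levels per marker sum and the values against WT 3. Some genes that this rule names are not reported here. Intervals cover counting error only.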

Additional observations from a re-analysis of the deposited data

How the results depend on the processing

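The log2 fold changes of Ifi203, Ifi204, Ifi207, Ifi209, Ifi211 and Mndal stayed below 0 under every alternative run: scaling by DESeq2 size factors or by library size alone, testing without a filter, a filter of 1 CPM in 3 libraries, DESeq2, limma-voom with and without sample weights, the replicate block, other rounding, and leaving out libraries. Library size alone moved the median of all genes to 0.19 and kept all 6 below it. For Aim2 the value was reversed, at −0.23, without WT 1, and at −0.38 without WT 1 and WT 2; leaving out 1 library gave −0.23 to 0.90. The count of members called was 0 with edgeR, 1 with DESeq2, 4 with limma-voom and sample weights (where 25.4% of all genes were called lower), and 0 to 2 when 1 library was left out; the 2, Mndal and Ifi211, were called without WT 3, where 12.9% of all genes were. The genes called in the 3 pathway lists were 0 with edgeR, 5 with DESeq2 (0.409% of all genes called), 29 of 40 with sample weights (54.2%) and 0 to 17 with 1 library left out (17 without WT 3, where 34.1% were), in both directions. Without WT 1 and WT 2, which leaves 1 wild-type library and no test, the members' median was −0.72 and the ratio of summed CPM 0.647. Over the whole-count members, Ifi207 and Aim2, the median was −0.15, by construction an average of those 2. Leaving out 1 library gave medians of −1.65 to −1.07 and ratios of 0.348 to 0.512. Library size alone separated 4 members and the TPM scale, added after the data were seen, 3; leaving out a library can hardly lower this count and says nothing of its stability. With the replicate block no member was called (median −1.53 and, for Mndal, adjusted p = 0.250 with edgeR). The labels do not say that the replicate numbers pair libraries, so the block was run as an alternative only. Deviations of same-numbered libraries correlated at 0.0904, 0.363 and 0.189. For libraries with different numbers this ran from −0.288 to 0.180, the latter for WT 1 with KO 2. Whether the numbers pair libraries cannot be told from these values. Depth limits Ifi205, Ifi206, Ifi208, Ifi213, Ifi214 and Aim2 most. The cause of these differences was not tested.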
